A study of Mus musculus with 20 samples.

Results

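The genes of MHC class I antigen presentation were followed in corneal epithelium across 4 ages. They were 8 genes chosen by symbol, out of 24552 genes in the deposited table: *B2m*, *H2-K1*, *H2-D1*, *H2-T23*, *Tap1*, *Tap2*, *Tapbp* and *Nlrc5*. The 20 libraries came from 20 naïve, wild-type female C57BL/6J mice, 5 at each age, and each library held the epithelium scraped from both corneas of 1 animal. By their labels the mice were between 2 and 3 months old in the young (2-month) group, between 12 and 13 in the 12-month group, between 18 and 19 in the 18-month group and between 24 and 25 in the 24-month group. No transgene, deletion, wound or treatment distinguished the groups, and all were of 1 sex and 1 strain. Per the study's methods, mice were purchased, kept until old in house or obtained from an institute's aged colony, and the labels do not say which, so age and source cannot be told apart.

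Nearly every nucleated cell displays peptides from its own proteins on class I molecules, where CD8 T cells read them and natural killer cells sense their loss. A class I molecule is a heavy chain, here H2-K1 or H2-D1 for the classical forms and H2-T23 (Qa-1) for a nonclassical form that natural killer receptors bind, joined to the invariant light chain β2-microglobulin (*B2m*). Peptides cut by the proteasome enter the endoplasmic reticulum through the TAP transporter, a heterodimer of TAP1 and TAP2, and tapasin (*Tapbp*) holds the empty heavy chain beside that transporter while peptide is loaded. NLRC5 is the transactivator that drives transcription of this set of genes, and interferons raise most of them. The corneal epithelium is an immune-privileged surface whose class I genes are known to respond to inflammation.

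The reads came from the 3′ end of transcripts, so a value is a normalized count, a read count divided by the library's size factor, and it is not divided by transcript length. Levels are therefore compared between ages for 1 gene and not between genes. Libraries held 6699383 to 10762360 reads on genes, and the corneal keratin *Krt12* was at 203580 to 285895 normalized counts in all 20 libraries. Summed markers of stromal keratocytes, the cells under the epithelium, were higher in young libraries (1717 to 4663) than in aged libraries (321 to 1597), and their part in the results below was not tested. In scraped tissue, fewer cells of a type and less RNA per cell cannot be told apart. A pair of libraries stood apart in class I genes, 18-month replicate 2 and young replicate 4, and results that rest on them are given with and without them.

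*B2m* (gene identifier 12010) lies on GRCm38 chromosome 2 at 122147686 to 122153083, plus strand. In the GENCODE annotation it sits inside the interval of *Patl2* on the opposite strand, but shared 0 exonic bases with it, and *Patl2* had 0 reads in every library. *Nlrc5* (434341) lies on chromosome 8 at 94434356 to 94527272, plus strand. The other 6 genes lie in the MHC region of chromosome 17. These are *Tapbp* (21356) at 33915899 to 33929292, plus strand, *H2-K1* (14972) at 33996017 to 34000347, minus strand, *Tap1* (21354) at 34187553 to 34197225, plus strand, *Tap2* (21355) at 34203527 to 34216321, plus strand, *H2-D1* (14964) at 35262730 to 35267499, plus strand, and *H2-T23* (15040) at 36029773 to 36032855, minus strand. The strand setting of the counting was not stated in the sources used here. None of the 8 genes shared bases with an annotated exon of another gene in its last 500 exonic bases, the end from which these reads derive. Heavy chain genes resemble each other, so each end was also cut into 75-base windows, the read length. For *H2-K1*, *H2-D1*, *B2m*, *Tap1*, *Tap2*, *Tapbp* and *Nlrc5*, 0 of 426 windows occurred in a transcript of another gene. For *H2-T23*, 85 of 426 windows did, so its count is less certain.

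The promoters were searched for letters of the types of element through which interferon and NF-κB act on class I genes. The 250 bases before the start of 6 of the 8 genes were searched in RefSeq sequence of GRCm38.p6; *Tap2* and *Nlrc5* were not in that table. The stretches that follow hold the interferon-type element TTTCNNTTC (*H2-K1*, *H2-D1*) or TTTCNNTTTC (*B2m*, on the reverse strand, and *H2-T23*), shown in capitals in 30 bases, 5′ to 3′ on the strand of the gene. They are shown because an interferon-type element was found before both the heavy chain and the light chain genes.
H2-K1, chr17:34000418-34000447, minus strand: atctccacagTTTCACTTCtgcacctaacc
H2-D1, chr17:35262934-35262963, plus strand: atctcctcagTTTCACTTCtgcacctaacc
B2m, chr2:122147538-122147567, plus strand: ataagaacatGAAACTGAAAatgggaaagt
H2-T23, chr17:36032806-36032835, minus strand: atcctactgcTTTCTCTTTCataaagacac

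Compared base by base, the *H2-K1* and *H2-D1* stretches matched at 29 of 30 bases. The *B2m* element lies in the opposite orientation and was not compared. The *H2-D1* and *H2-T23* stretches lie inside the GENCODE intervals of those genes, which start further upstream than the RefSeq starts. The NF-κB element GGGNNTTCCC, in capitals in the next pair, was found before *H2-K1* and *H2-D1*.
H2-K1, chr17:34000439-34000468, minus strand: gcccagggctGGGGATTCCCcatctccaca
H2-D1, chr17:35262913-35262942, plus strand: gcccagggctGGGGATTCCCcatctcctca

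This pair also matched at 29 of 30 bases. Neither an interferon-type element nor the NF-κB element was found before *Tap1* or *Tapbp*. Searched on both strands, TTTCNNTTC occurred in 6.31% of the 32851 promoter windows in the table, TTTCNNTTTC in 2.98% and GGGNNTTCCC in 1.53%. The shorter letters TGACG (17.8% of windows) were found in 4 of the 6 promoters, those of *B2m*, *H2-K1*, *H2-D1* and *Tap1*, and CCAAT (33.8% of windows) in all 6. A match describes the letters in the window and does not show that a factor was bound.

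The class I genes differed in how many reads stood behind them, which sets the counting error for each gene and is not a comparison of transcript levels. *H2-D1*, *H2-K1*, *Tapbp* and *B2m* had the most, with means over 20 libraries of 1808, 1555, 1258 and 809 normalized counts, which placed them at the 94.4, 93.3, 91.0 and 85.0 percentiles of mean count among the 11288 genes tested. *Tap1* averaged 227 (57.8 percentile) and *Tap2* 54.3 (24.1 percentile). *H2-T23* and *Nlrc5* were near the limit of detection, with 62 and 27 reads over the 20 libraries together. Both were below the minimum mean normalized count of 10, so 6 of the 8 genes entered the test across genes.

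**Figure D1:**
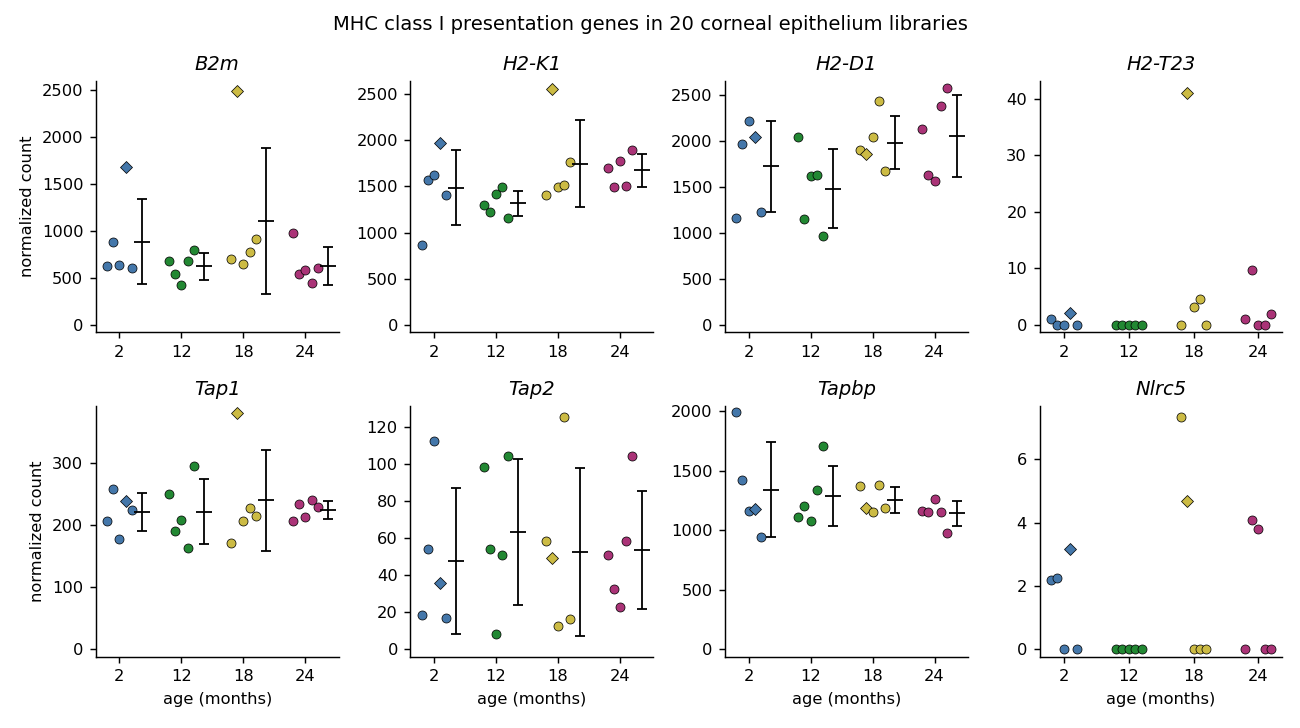
Normalized count (vertical axes, linear) of each of the 8 genes against age in months, 1 point per library, with diamonds for 18-month replicate 2 and young replicate 4. Black dashes and bars give the mean and SD of 5 libraries, and are left out for *H2-T23* and *Nlrc5*, which are at 0 in most libraries. The 18-month diamond is the highest point for *B2m*, *H2-K1*, *H2-T23* and *Tap1*.

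The light chain gene *B2m* measured 627, 883, 637, 1676 and 605 normalized counts in young libraries 1 to 5. At 12 months it measured 679, 539, 419, 674 and 791. At 18 months it measured 698, 2485, 644, 775 and 915. At 24 months it measured 974, 538, 581, 441 and 604. All 4 ages overlapped, and outside young replicate 4 and 18-month replicate 2 every library lay between 419 and 974. The means ± SD (n = 5) were 886 ± 456, 621 ± 144, 1103 ± 779 and 628 ± 203 from the youngest to the oldest group. The order of the means was thus 18-month, young, 24-month and 12-month. Each difference between neighbours in that order was smaller than the larger of their SDs.

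The classical heavy chain gene *H2-K1* measured 862, 1566, 1623, 1971 and 1408 in young libraries. At 12 months it measured 1294, 1226, 1415, 1488 and 1152. At 18 months it measured 1406, 2556, 1493, 1513 and 1769. At 24 months it measured 1695, 1491, 1778, 1503 and 1896. Every 24-month library lay above every 12-month library, though the nearest 2 were 1491 and 1488. Such separation between these ages occurred for 3.24% of all genes tested, and *H2-K1* was 1 of the 6 tested class I genes. In the other 5 pairs of ages 0 of the 6 genes were separated, where 1.98% (12-month against young), 2.05% (18-month against young), 2.81% (24-month against young), 1.13% (18-month against 12-month) and 1.2% (24-month against 18-month) of all genes were. The means ± SD (n = 5) were 1486 ± 405, 1315 ± 137, 1747 ± 472 and 1673 ± 175 from the youngest to the oldest group.

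The other classical heavy chain gene, *H2-D1*, measured 1164, 1959, 2215, 2041 and 1223 in young libraries. At 12 months it measured 2044, 1144, 1618, 1626 and 963. At 18 months it measured 1897, 1852, 2041, 2429 and 1671. At 24 months it measured 2127, 1628, 1567, 2380.0 and 2567. The highest library was at 24 months and the lowest at 12 months, and all ages overlapped. The means ± SD (n = 5) were 1720.3 ± 490.1, 1479 ± 429.6, 1978 ± 285 and 2054 ± 445 from the youngest to the oldest group. In the libraries with the highest *B2m*, *H2-D1* was within the range of the other libraries of the same age, at 1852 in 18-month replicate 2 and 2041 in young replicate 4.

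The nonclassical heavy chain gene *H2-T23* had reads in 8 of the 20 libraries. It measured 41.1 (35 reads) in 18-month replicate 2 and at most 9.76 in any other library. All 5 of the 12-month libraries were at 0 reads, which with 3 reads taken as the limit over the group allows a mean of up to 0.657 normalized counts. The transactivator gene *Nlrc5* had reads in 7 libraries and was highest in 18-month replicate 1 (7.32). It was also at 0 reads in the 12-month group, with the same limit of 0.657, and such limits cover counting error only. At this depth no age difference in either gene was detected. Two-sided exact permutation tests against the young group gave p = 0.444, p = 0.246 and p = 0.563 for *H2-T23* at 12, 18 and 24 months, and p = 0.167, p = 1 and p = 1 for *Nlrc5*.

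The transporter gene *Tap1* measured 206, 258, 178, 238 and 224 in young libraries. At 12 months it measured 250.02, 191, 208, 163 and 296. At 18 months it measured 171, 381, 206, 228 and 215. The 24-month values were 207, 233, 214, 241 and 229.6. Outside 18-month replicate 2 (381), every library lay between 163 and 296, and the ages overlapped throughout. Means ± SD (n = 5) were 221 ± 30.5, 222 ± 52.0, 240.1 ± 81.6 and 225 ± 14.2 from the youngest to the oldest group.

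The other transporter gene, *Tap2*, measured 18.6, 53.96, 112, 36.03 and 17.1 in young libraries. The 12-month values were 98.4, 53.9, 8.57, 51.1 and 104. The 18-month values were 58.5, 49.3, 12.7, 125 and 16.4. The 24-month values were 50.7, 32.5, 22.7, 58.3 and 104. Each age thus held a library above 100 and a library below 25, and the highest library was 14.6 times the lowest. Means ± SD (n = 5) were 47.6 ± 39.2, 63.3 ± 39.2, 52.5 ± 45.4 and 53.7 ± 31.7 from the youngest to the oldest group.

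The loading factor gene *Tapbp* varied least of the 8 genes within ages. It measured 1995, 1420.2, 1167, 1184 and 947 in young libraries. The 12-month values were 1113, 1207, 1081, 1338 and 1706. The 18-month values were 1369.6, 1188, 1152, 1384 and 1190.4. The 24-month values were 1166, 1152, 1262, 1155 and 979. Young replicate 1 was the highest library, and the same library was the lowest for *H2-K1*. Means ± SD (n = 5) were 1343 ± 401, 1289 ± 254, 1257 ± 111 and 1143 ± 102 from the youngest to the oldest group, a range smaller than the SD of the young group.

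The spread within ages was larger than counting error for all 8 genes. Within ages the coefficient of variation was 57.9% for *B2m*, where counting alone gives 3.51%. It was 21.2% for *H2-K1*, 23.2% for *H2-D1*, 22.6% for *Tap1*, 19.8% for *Tapbp* and 72.2% for *Tap2*, against counting values of 2.53%, 2.35%, 6.63%, 2.82% and 13.6%. For *H2-T23* and *Nlrc5* it was 281% and 156%, against 55.6% and 85.2%. The *B2m* spread includes 18-month replicate 2 (2485) and young replicate 4 (1676), outside which every library lay between 419 and 974. Of the 62 reads of *H2-T23*, 35 were in 18-month replicate 2. The spread without these libraries was not computed. On the log2 scale the SD within ages was 1.18 for *Tap2*, at the 92.5 percentile of the 11288 genes, and 0.57 for *B2m*, at the 71.4 percentile. *Tapbp*, with 0.26, was at the 24.7 percentile.

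No class I gene was called different from the young group at any aged time point. With limma on the log2 values, and a call set at an adjusted p of 0.05 or less with at least 1.2-fold change, 0 of the 6 tested genes were called at 12 months, where 0.532% of all genes were called. The counts were also 0 of 6 at 18 months (0.673% of all genes called) and 0 of 6 at 24 months (0.78%). At an unadjusted p below 0.05 the count was 0 of 6 at 12, 18 and 24 months, where 9.56%, 7.18% and 9.97% of all genes passed, and it was 0 of 6 with voom on the recovered reads. Over all 15 aged libraries against the young group, 0 of 6 were called (1.01% of all genes) and 0 of 6 had an unadjusted p below 0.05 (7.89%). The test for any difference among the 4 ages called 0 of 6 (0.904%), and 0 of 6 had an unadjusted p below 0.05 (11.4%). The 6 genes had a median log2 fold change of -0.08, 0.15 and 0.13 at 12, 18 and 24 months, beside medians of -0.01, -0.00 and 0.01 over all genes tested.

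The intervals of these changes bound what the 5 libraries per age could show. At 24 months the log2 fold change of *B2m* was -0.43 (SE 0.29, limma, adjusted p = 0.668), with a 95% confidence interval from 0.491-fold to 1.13-fold of the young level. That of *H2-K1* was 0.22 (SE 0.17, limma, adjusted p = 0.719; 0.915-fold to 1.47-fold), and that of *H2-D1* was 0.28 (SE 0.19, limma, adjusted p = 0.674; 0.922-fold to 1.60-fold). *Tap1* had the value closest to 0, 0.04 with an interval from 0.778-fold to 1.35-fold, and *Tapbp* had -0.19 with an interval from 0.708-fold to 1.09-fold. For *Tap2* the interval ran from 0.514-fold to 3.08-fold, so neither a fall to the lower of these levels nor a rise to the upper could be told from no change.

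At 12 months the log2 fold changes were -0.42 for *B2m*, -0.13 for *H2-K1*, -0.22 for *H2-D1*, -0.02 for *Tap1*, 0.36 for *Tap2* and -0.03 for *Tapbp*, with limma adjusted p of 0.703 to 0.993. At 18 months they were 0.23, 0.25, 0.24, 0.08, 0.03 and -0.05 in the same order, with limma adjusted p of 0.865 to 0.996. Without 18-month replicate 2 the *B2m* value at 18 months was -0.12 and the *Tap1* value -0.10, so their sign rested on that library. Over the 24 two-sided exact permutation tests of the 8 genes at 3 ages, the lowest p was 0.167 (*Nlrc5*, 12 months) and the lowest Benjamini-Hochberg value 0.940, where 5 libraries against 5 can give 0.00794 at the least.

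**Figure D2:**
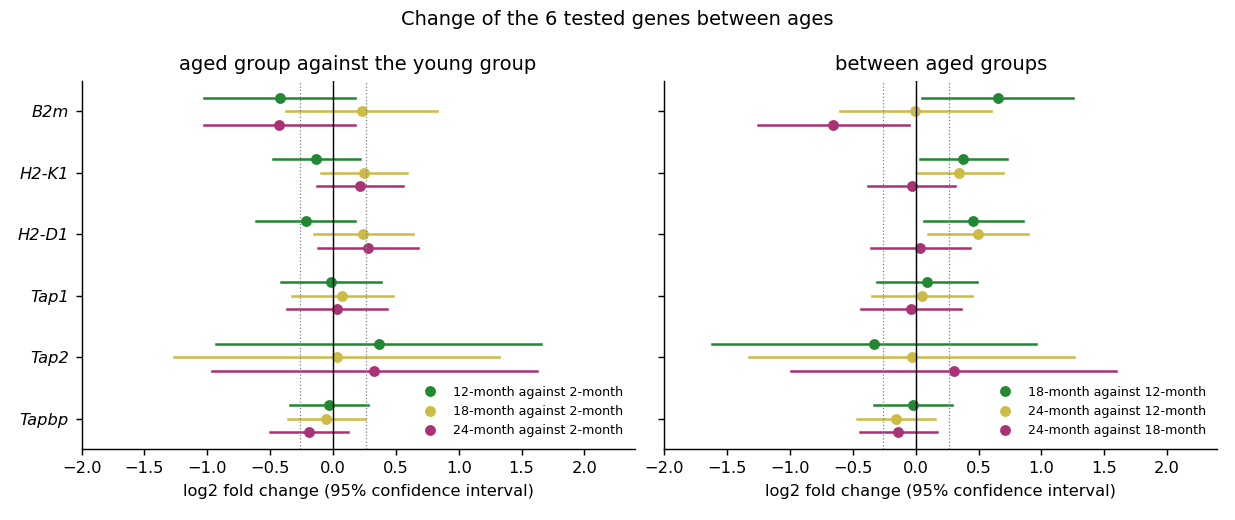
Log2 fold change (horizontal axes) of the 6 tested genes, points with 95% confidence intervals from limma, for each aged group against the young group (left) and between aged groups (right). Dotted lines mark 1.2-fold in either direction. All intervals on the left cross 0, and the widest are those of *Tap2*.

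Between the aged groups, the largest differences were those of the light chain and the heavy chains, and none was called. From 12 to 18 months the log2 difference was 0.65 for *B2m* (SE 0.29), 0.46 for *H2-D1* (SE 0.19) and 0.38 for *H2-K1* (SE 0.17). All of these had an unadjusted p below 0.05 with limma (3 of 6 genes, where 7.43% of all genes did) and an adjusted p of 0.661. From 12 to 24 months, *H2-D1* differed by 0.50 (SE 0.19, limma, adjusted p = 0.236) and *H2-K1* by 0.35 (SE 0.17, limma, adjusted p = 0.337). That made 2 of 6 genes with an unadjusted p below 0.05, where 14.7% of all genes had one. From 18 to 24 months *B2m* differed by -0.66 (SE 0.29, limma, adjusted p = 0.919), 1 of 6 genes where 5.31% of all genes had an unadjusted p below 0.05. With voom the same 3 genes from 12 to 18 months and the same 2 from 12 to 24 months had an unadjusted p below 0.05, and 0 did from 18 to 24 months. Calls over all genes numbered 1 (0.00886%), 22 (0.195%) and 0 (0%) in these comparisons, and 0 of 6 class I genes were among them.

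The counts at an unadjusted p below 0.05 fell when single libraries were left out. From 12 to 18 months the count was 0 of 6 without 12-month replicate 2, 1 of 6 without 12-month replicate 5 or 18-month replicate 2, and 2 or 3 of 6 otherwise. From 12 to 24 months it was 0 of 6 without 12-month replicate 2 or 5 or 24-month replicate 5. It was 1 of 6 there without young replicate 2 or 5, 12-month replicate 1, 18-month replicate 3, 4 or 5, or 24-month replicate 1 or 3. From 18 to 24 months it was 0 of 6 without 18-month replicate 2 or 24-month replicate 2, 3 or 4. The differences themselves also moved. Without 18-month replicate 2, the *B2m* difference was 0.31 from 12 to 18 months (limma, adjusted p = 0.743) and -0.31 from 18 to 24 months (limma, adjusted p = 1), and the *H2-K1* difference from 12 to 18 months was 0.23 (limma, adjusted p = 0.713). Without 12-month replicate 5, the *H2-D1* difference was 0.32 from 12 to 18 months (limma, adjusted p = 0.964) and 0.35 from 12 to 24 months (limma, adjusted p = 0.511). The 12-month group was common to both comparisons and had the lowest mean count of *H2-D1* and *H2-K1*. For *B2m* its mean count was close to that at 24 months (621 and 628), and the log2 difference from 12 to 24 months was -0.0025.

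The library 18-month replicate 2 was the highest of all 20 in 4 of the 8 genes. Over all genes tested, it also had the largest mean absolute log2 deviation from its age mean (0.470). Young replicate 1 was close to it (0.467), and young replicate 4 had 0.294. The share of all genes that were highest in 18-month replicate 2 or in young replicate 4 was not counted. In 18-month replicate 2, *B2m* was 3.38 times the median of the other 18-month libraries, *Tap1* 1.81 times and *H2-K1* 1.70 times. *H2-D1* (0.941 times) and *Tapbp* (0.928 times) were within the range of the other 18-month libraries. Outside the 8 genes, it was also the highest library for *Psmb8*, an immunoproteasome subunit (613, others 204 to 423), and for the interferon-induced *Gbp2* (557, others 144 to 364). *Psmb9*, the partner subunit, was at 107 there (rank 12 of 20), and *Gbp2* was the single gene of the 13 interferon-stimulated genes, and *Psmb8* of the 7 in peptide generation, to be highest in this library. Summed over the lists, the interferon-stimulated genes were at 4324 (rank 3, others 2153 to 5478), peptide generation at 2924 (rank 1, others 2043 to 2760) and the 10 class II genes at 959 (rank 1, others 277 to 652). Of the class II genes, 6 of 10 were highest in this library. *H2-Eb1* was at 271 (others 50.4 to 185), and *H2-Ob*, the class II chaperone gene of B cells and some dendritic cells, at 31.7 (others 0 to 3.58), while *Cd74* was at 99.7 (rank 5). The T cell gene *Cd3d* was at 15.2 (13 reads; others 0 to 4.24), the leukocyte gene *Ptprc* at 43.4 (rank 3 of 20) and the keratocyte gene *Kera* at 91.5 (others 0 to 42.8). Over the whole lists, its 11 measured T and NK cell markers summed to 15.2 (all libraries 0 to 15.2), its 7 leukocyte markers to 97.3 (42.6 to 199) and its 8 keratocyte markers to 1356, the highest of the 18-month group (653 to 1356). *Krt12* was at 237816. The part of these cells in the high class I values was not tested.

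Young replicate 4 had the second highest *B2m*, 2.65 times the median of the other young libraries, and the second highest *H2-K1*, 1.33 times that median. Its *Tap1* (1.11 times), *Psmb8* (1.25 times) and *Gbp2* (1.27 times) were inside the range of the other young libraries. Of the 13 interferon-stimulated genes, 2 (*Usp18* and *Bst2*) were highest of all 20 libraries in this library. That list summed to 4264 (rank 4, others 2153 to 5478) and peptide generation to 2583 (rank 6, others 2043 to 2924). The B cell gene *Ms4a1* was at 28.6 (27 reads) in this library and at 0 in the other 19, while *Cd79a* was at 0 in all 20. Its class II invariant chain gene *Cd74* was 0.505 times the median of the other young libraries. *H2-Aa* was 1.29 times that median, *H2-Eb1* 1.02 times, *H2-Ab1* 0.907 times and *H2-DMa* 0.370 times. Summed, the 10 class II genes were at 546 (rank 6, others 277 to 959), and 1 of 10, *H2-Oa* (3 reads), was highest in this library.

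**Figure D3:**
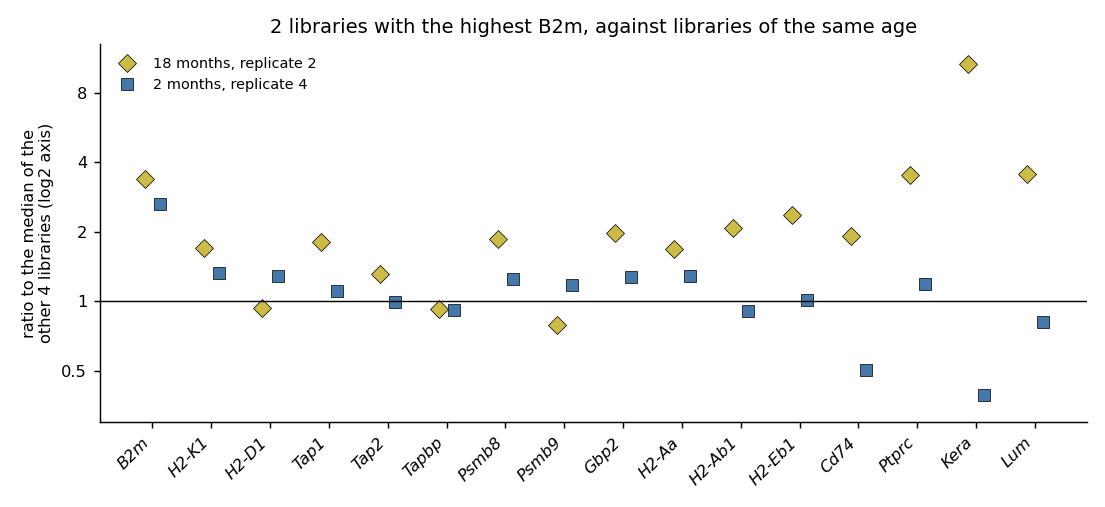
Ratio of the normalized count in 18-month replicate 2 (diamonds) and young replicate 4 (squares) to the median of the other 4 libraries of the same age, on a log2 axis, for class I genes with at least 10 normalized counts on average and for named immune and stromal genes. In *B2m* they stand at 3.38 and 2.65, while *H2-D1* and *Tapbp* lie between 0.915 and 1.28 in both.

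Across libraries, Pearson's r between pairs of class I genes ran from -0.57 to 0.65. With the mean of each age removed from the log2 values (n = 20), 28 pairs of genes were examined and 0 passed Benjamini-Hochberg adjustment. The light chain and *H2-K1* had the strongest relation, with Pearson's r = 0.65 (permutation p = 0.0113, adjusted 0.288) and Spearman's rho = 0.55 (permutation p = 0.0213, adjusted 0.422), and they deviated to the same side in 13 of 20 libraries. Without 18-month replicate 2 and young replicate 4, r was 0.31, so the relation rested on those libraries. *B2m* and *Tap1* had r = 0.61 (permutation p = 0.0309, adjusted 0.288) and rho = 0.44 (permutation p = 0.0753, adjusted 0.422), and r = 0.32 without the same 2 libraries.

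The heavy chains *H2-K1* and *H2-D1*, whose promoter stretches are nearly identical, had r = 0.42 (permutation p = 0.0777, adjusted 0.362) and rho = 0.44 (permutation p = 0.0641, adjusted 0.422). It was 0.40 without both libraries farthest out in *H2-K1*, young replicate 1 and 18-month replicate 2. With 1 library left out in turn it ran from 0.23 to 0.55, the latter without 18-month replicate 2. *B2m* and *H2-D1* had r = 0.07 (permutation p = 0.771, adjusted 0.930), and the partners of the TAP transporter, *Tap1* and *Tap2*, had r = 0.16 (permutation p = 0.584, adjusted 0.930). *H2-K1* and *Tapbp* had the most negative relation, r = -0.57 (permutation p = 0.0463, adjusted 0.316) and rho = -0.46 (permutation p = 0.0512, adjusted 0.422), and r = -0.34 without the same pair of libraries. *H2-D1* and *Tap2* had r = 0.41 (permutation p = 0.103, adjusted 0.380) and rho = 0.48 (permutation p = 0.0421, adjusted 0.422). For this pair r was 0.55 without the libraries farthest out in *H2-D1*, 12-month replicate 5 and young replicate 1. It ran from 0.33 to 0.60 with 1 library left out in turn. The labels gave no batch within which these relations could be repeated.

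**Figure D4:**
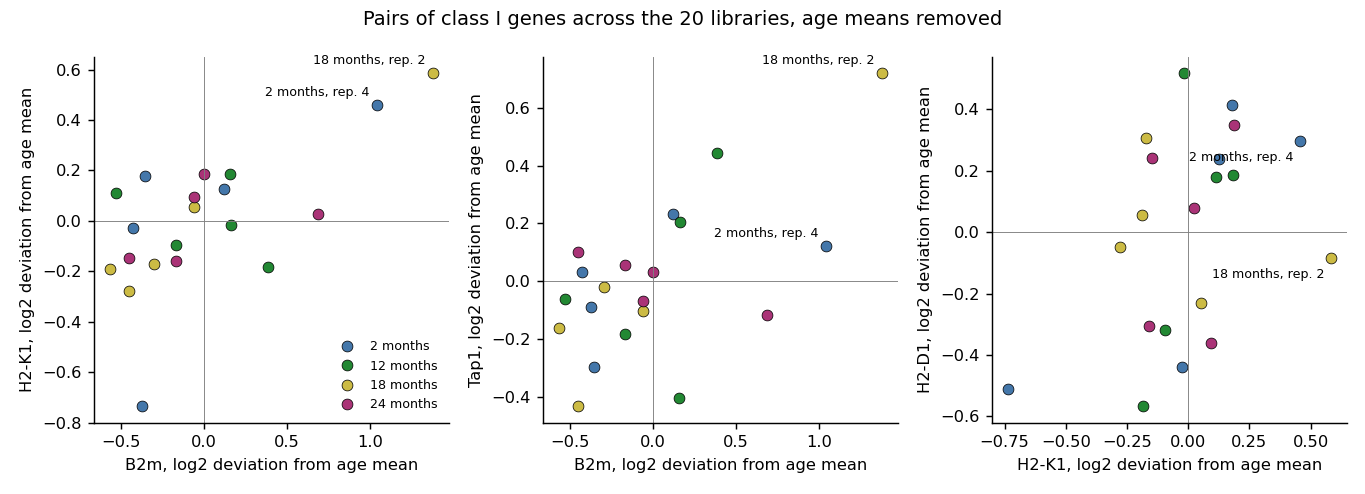
Deviation of log2 values from the age mean in the 20 libraries for *B2m* against *H2-K1*, *B2m* against *Tap1*, and *H2-K1* against *H2-D1*, coloured by age. In the first panel 18-month replicate 2 and young replicate 4 lie far to the upper right of the rest (r = 0.65 with them, 0.31 without).

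The genes most like the class I set were sought by correlating each tested gene with the mean standardized log2 value of the 6 tested class I genes over 20 libraries. *Psmb8* was closest, with r = 0.83 on the values as deposited and r = 0.85 with age means removed, and r = 0.71 on the deposited values without 18-month replicate 2. It lies between *Tap1* and *Tap2* on chromosome 17. On the deposited values the next were *Ctbp2* (0.71), *Mob3c* (0.71), *Sgtb* (0.71) and *Cldn1* (0.70). Without 18-month replicate 2 these were 0.70, 0.54, 0.62 and 0.64 in the same order. With age means removed, r was not computed without that library. The next were then *Lap3*, a leucine aminopeptidase gene (0.80), and *Sar1b*, of the vesicle coat that leaves the endoplasmic reticulum (0.78). They were followed by *Tvp23b* (0.78) and *Atg16l1*, of autophagy (0.78). These values rank the 11288 genes and carry no test.

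The wider presentation pathway gave few calls. In peptide generation, the immunoproteasome, its activator and the trimming peptidases, 0 of 7 genes tested were called in any comparison. A single comparison called at most 1.01% of all genes. The most abundant of the list were the proteasome activator genes *Psme1* and *Psme2*, with log2 fold changes at 24 months against young of -0.07 and 0.11. In that comparison the largest differences of the list were -0.36 for the trimming peptidase *Erap1* (limma, adjusted p = 0.642) and -0.32 for *Lnpep* (limma, adjusted p = 0.659). *Lnpep* also had 0.55 at 12 months against young (limma, adjusted p = 0.353) and -0.87 from 12 to 24 months (SE 0.21, limma, adjusted p = 0.0811). In folding and loading, 0 of 7 were called in any comparison, against the same share, with log2 fold changes at 24 months of -0.33 for the chaperone calreticulin, *Calr* (limma, adjusted p = 0.305), -0.11 for calnexin, *Canx*, and -0.10 for *Hspa5*.

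Among 23 tested regulators of class I transcription, *Irf1* was called in 1 comparison. *Irf1* encodes an interferon regulatory factor that binds elements of the type printed above. It measured 2236, 2678, 2725, 2614 and 2009.6 at 12 months and 3237, 3580.2, 4203, 3259.8 and 3112 at 24 months. These libraries did not overlap, which between these ages was so for 3.24% of all genes tested. The log2 difference was 0.51 (SE 0.11, limma, adjusted p = 0.0419; 1.42-fold), where 0.195% of all genes were called. The call was lost when any of 15 of the 20 libraries was left out (limma, adjusted p = 0.0515 to 0.140). Against the young group the 24-month value was 0.30 (SE 0.11, limma, adjusted p = 0.282). *Jak1*, the most abundant regulator, had -0.14 at 24 months against young (limma, adjusted p = 0.666). The interferon genes *Ifng* and *Ifnb1* had 0 reads in every library.

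Among 13 interferon-stimulated genes, *Trim30a* was called at 18 months against young (1 of 13, where 0.673% of all genes were called). It was also called over all aged libraries (1 of 13, where 1.01% were). The test for any difference among the 4 ages called it as well (1 of 13, limma, adjusted p = 0.0492, where 0.904% were). The other 12 were not called in any comparison. *Trim30a* measured 295, 489, 325, 647 and 301 in young libraries. At 18 months it measured 607, 909, 668, 600.2 and 797, where the young group overlapped through replicate 4. The log2 fold change was 0.85 at 18 months (SE 0.19, limma, adjusted p = 0.0209; 1.81-fold) and 0.75 over all aged libraries (SE 0.16, limma, adjusted p = 0.00819). The 18-month call was lost without young replicate 1, 3 or 5 or 18-month replicate 2 or 5 (limma, adjusted p = 0.0708 to 0.101), and the call over all aged libraries without young replicate 5 (limma, adjusted p = 0.0595). At 24 months the value was 0.62 (limma, adjusted p = 0.161). *Ifi27* had 0.68 at 24 months (limma, adjusted p = 0.154) and *Oasl2*, the most abundant of the list, 0.09 (limma, adjusted p = 0.898). The median of the list at 24 months was -0.03, beside 0.01 over all genes.

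Class II genes, which present peptide to CD4 T cells and are carried by professional presenting cells, had 0 of 6 tested genes called in any comparison. At most 1.01% of all genes were called in a single comparison. The invariant chain gene *Cd74* measured 113 ± 47.5 (SD, n = 5) in young libraries and 38.7 ± 13.2 at 12 months, a log2 difference of -1.47 (SE 0.36, limma, adjusted p = 0.0562). At 24 months against young, *Cd74* had -1.06 (limma, adjusted p = 0.225), *H2-Eb1* -0.67 (limma, adjusted p = 0.454), *H2-Aa* -0.40 (limma, adjusted p = 0.592) and *H2-DMa* 1.15 (limma, adjusted p = 0.707). Summed leukocyte markers ran from 90.4 to 182 in young libraries, 56.1 to 96.5 at 12 months, 47.6 to 199 at 18 months and 42.6 to 108 at 24 months. With age means removed (n = 20), 0 of the 8 class I genes had a relation with that sum that passed adjustment. For *B2m* r was 0.19 (permutation p = 0.564, adjusted 0.842) and rho 0.22 (permutation p = 0.406, adjusted 0.629), with r = 0.17 without the 2 libraries farthest out.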

How the data were processed

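Total RNA of 20 libraries was primed with oligo-dT (Lexogen kit) and read as single reads of 75 bases. The authors used cutadapt for trimming, STAR for alignment to GRCm38, HTSeq for counting and DESeq2 for normalization (versions not given in the sources used here). The deposited log2 values are log2 of the count divided by a size factor, plus a pseudocount of 1. The deposited tables of the authors' pairwise comparisons (3 tables of fold changes and p-values) were not used. Each value was turned back into whole reads (100% within 0.01).

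The 11288 genes whose mean normalized count was 10 or more were fitted by age with limma 3.58.1 in R 4.3.3, with a variance trend and Benjamini-Hochberg adjustment. The comparison of all aged libraries used 2 groups. Exact permutation tests used all 252 splits, and correlations used 100000 permutations within ages, with scipy 1.17.1 in Python 3.11.15. Promoter windows were from RefSeq, positions and transcripts from GENCODE vM21.

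The members and lists were chosen with earlier results of these data known, and *Gbp2*, *Psmb8*, *Psmb9*, *H2-Ob*, the further *Lnpep* values and the immune and stromal genes given for the 2 libraries that stood apart after their values were seen. All 8 members are named, and from each list the called genes, or else the 2 with the largest change at 24 months, with the 2 most abundant, and the 5 genes most like the members. The alternatives were quantile normalization, voom, other filters (none, 50), pseudocounts (0.1, 10) and fold thresholds (none, 1.5), a fit of 2 ages, a replicate block and leaving out each library. Leaving out both libraries that stood apart, and scaling the recovered reads to library totals in the exact tests, were chosen after seeing the data. The fit was tested on simulated data.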

Additional observations from a re-analysis of the deposited data

Results flagged for a closer look

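The *B2m* count of 18-month replicate 2, 2485 normalized counts, was far from the other 4 libraries of its age, which lay between 644 and 915. On the log2 scale, on which all groups were examined, its gap to the nearest library was 0.740 of the range of the group, above Dixon's 95% critical value of 0.71 for 5 samples. It was 1 such value among 32 groups of 5 libraries examined (8 genes at 4 ages), of which 30 had any spread, and chance gives about 1 in 20.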

How the results depend on the processing

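In the 8 comparisons, 0 class I genes were called under any alternative. The lowest adjusted p of any of them was 0.0887 (limma, *H2-D1*, 24 against 12 months, without 12-month replicate 1). The replicate numbers did not pair the libraries (median r of 30 same-numbered pairs 0.01, range -0.30 to 0.16; 3 of 20 libraries correlated best with their own number). With the number as a replicate block, 0 class I genes were called and the lowest limma adjusted p was 0.261. The log2 change of *Tap2* at 18 months was -0.12 with voom. With each library left out in turn, log2 changes against the young group ran from -0.12 to 0.49 for *B2m* at 18 months, and for *Tap1* from -0.13 to 0.086 at 12 months, -0.10 to 0.18 at 18 months and -0.039 to 0.094 at 24 months. They ran from -0.40 to 0.42 for *Tap2* at 18 months, and for *Tapbp* from -0.15 to 0.12 at 12 months and -0.17 to 0.10 at 18 months. Without both 18-month replicate 2 and young replicate 4, *Tap1* was at 0.015 (12 months) and -0.074 (18 months) and *Tap2* at -0.074 (18 months). Exact permutation tests below 0.05 numbered 0 to 1 with 1 library left out: *H2-K1* at 12 months without young replicate 1 (p = 0.0397), and *Nlrc5* at 12 months without young replicate 3 or 5 (p = 0.0476). The cause was not tested. All 28 pairs of genes stayed above the threshold. The *Irf1* call was lost with 15 of the 20 libraries left out in turn (limma, adjusted p of these 0.0515 to 0.140), at a threshold of 1.5-fold (the change is 1.42-fold), and with no filter (0.0761), the replicate block (0.0839) or a fit of 2 ages (0.0891). *Trim30a* at 18 months also lost its call in a fit of 2 ages (limma, adjusted p = 0.0818). Depth limits *H2-T23* and *Nlrc5*.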

Other observations

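The nonclassical and class I-like genes outside the 8 mostly had few or no reads. Of 21 such genes, 8 had 0 reads in all 20 libraries, among them *H2-Q6*, *H2-Q7* and *H2-Q9*, and 2 were abundant enough to be tested. These were *Mr1*, which presents microbial metabolites to MAIT cells, at 328 to 503 normalized counts, and *Hfe*, a regulator of iron uptake, at 1.00 to 31.6. Neither was called in any comparison, with log2 fold changes at 24 months against young of -0.02 for *Mr1* (limma, adjusted p = 0.984) and -0.81 for *Hfe* (limma, adjusted p = 0.784). *H2-T22* had reads in 18 libraries and *H2-T10* in 20, and 39.2% of the 75-base windows at the end of *H2-T22* occurred in *H2-T10*, so their reads cannot be told apart with confidence. For *H2-Q6*, *H2-Q4* and *H2-Q7*, 19.5%, 15.7% and 0.235% of such windows occurred in other genes. The part of shared ends, or of depth, in the low counts was not tested.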
